A study of Mus musculus with 12 samples.

Results

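Ssb encodes La, the protein that binds newly made RNA polymerase III transcripts, and it is read here together with 8 of those transcripts in the liver and brain of Mettl5 knockout and control mice. The rows were chosen by symbol: Ssb, whose gene overlaps the targeted gene Mettl5, and the RNA polymerase III (Pol III) RNAs Rn7sk, Rny1, Rny3, Vaultrc5, Rn7s1, Rn7s2, Rpph1 and Rmrp. These 9 symbols fill 10 of the 55487 rows of the count table, since Rmrp has 2 gene models, and 8 of the 9 symbols had counts in every library. The symbols were picked with earlier results of the same libraries known, so their differences between genotypes are given as a description: no p-value of a member is printed for them, and where the text says which members passed a threshold, that is no independent evidence.

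Total RNA was sequenced from 12 libraries, a liver and a brain from each of 6 mice, which makes 4 groups of 3: KO liver and KO brain (mice A, C and F) and WT liver and WT brain (mice B, D and E). KO mice lack the second exon of Mettl5, the enzyme that methylates an adenosine in 18S rRNA. They came from a floxed allele made in embryonic stem cells of a strain hybrid, backcrossed to B6 and deleted in the whole body by Cre under the CMV promoter. WT is the word of the labels for the controls. The study's main legends call the mice sequenced beside the knockouts heterozygous, whereas a supplementary legend and title name wild-type mice. Neither source gives the age of each mouse, which for the study as a whole ran from weeks to months in both sexes. The 12 libraries held between 14403309 and 21623180 counts each. All 10 tissue markers checked, 5 of hepatocytes or liver and 5 of neurons and glia, were higher in every library of their own tissue than in any library of the other tissue. Mice E and F had at most 20 counts of Y-linked genes in a library and the other mice at least 2112, so each genotype held 1 mouse without Y-linked transcripts.

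Pol III makes short, abundant RNAs that are not translated, among them tRNAs, 5S rRNA and the RNAs described here. It stops at a run of T in the DNA, which leaves a run of U at the end of the new RNA, and La holds that tail, shields it from exonucleases and helps the RNA to fold. Some transcripts then lose the tail, while others keep it and stay bound to La or to a related protein such as Larp7, which takes over 7SK RNA. Liver and brain differ in which of these RNAs they hold, since the BC1 RNA, for example, is a Pol III transcript of rodent neurons.

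The annotated transcripts are printed here for their 3′ ends, where La binds a run of U. The sequences are the RNA strand written as DNA from the GENCODE transcripts of GRCm38, the same assembly as mm10, and capitals mark the T run that ends the model. The 2 Y RNAs, whose role includes binding the Ro60 protein, are shown whole.

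Rny1 (chromosome 6, 47788069 to 47788180, minus strand): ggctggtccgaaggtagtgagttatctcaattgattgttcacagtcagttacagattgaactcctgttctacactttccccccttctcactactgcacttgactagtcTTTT
Rny3 (chromosome 6, 47781624 to 47781725, plus strand): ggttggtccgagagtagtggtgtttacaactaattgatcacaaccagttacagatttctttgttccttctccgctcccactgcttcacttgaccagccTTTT

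Both Y RNA models end in 4 T, and they lie near each other on chromosome 6 on opposite strands. For Rn7sk, Rpph1 and Bc1 the last 40 bases are given.

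Rn7sk (chromosome 9, 78175303 to 78175633, minus strand): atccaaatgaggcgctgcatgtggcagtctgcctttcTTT
Rpph1 (chromosome 14, 50807449 to 50807767, minus strand): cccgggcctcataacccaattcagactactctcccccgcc
Bc1 (chromosome 7, 144914470 to 144914637, plus strand): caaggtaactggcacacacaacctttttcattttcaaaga

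The 7SK model ends in 3 T, whereas the models of Rpph1 and Bc1 end in no T. A model that stops short of a T run says only that the letters are not in the annotated interval. Vaultrc5, the vault RNA, lies on chromosome 18 from 36801866 to 36802008 on the plus strand.

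How well a row measures its RNA differed from gene to gene. Rny1, Rny3 and Vaultrc5 overlap no other gene. Rny1 and Rny3 share no 100-base window with another annotated transcript, but at 112 and 102 bases they are hardly longer than that window. Partial or unannotated copies, or copies within long transcripts, would not be seen this way. Rn7sk overlaps no gene and shares a 100-base window with 3 other annotated genes. The 7SL genes, which encode the RNA of the signal recognition particle, are identical over all 300 bases, so a read inside them fits both places, and 147 exon bases of each also lie in long noncoding RNA models on the same strand. Rpph1, the RNA of RNase P, shares 233 of its 319 exon bases with Ccnb1ip1 on the same strand. The 2 Rmrp models share 271 exon bases with each other, and both were listed at 0 in all 12 libraries. A count of 0 allows up to 3 counts per library, or 0.119 to 0.239 normalised read counts, but reads on the shared bases belong to both models and featureCounts leaves such reads out unless told otherwise. No option for them is named in the sources used here, so the value 0 does not measure the RNase MRP RNA. Rn7s1, Rn7s2 and Rpph1 are described below with this limit.

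Levels are normalised read counts, that is the CPM scale of edgeR, on which counts are divided by library sizes scaled by TMM over the 12 libraries. Between genes they are compared per kilobase of exon. In WT liver the order per kilobase was Rn7sk (9063 ± 1312 CPM per kb, mean ± SD, n = 3), Vaultrc5 (918 ± 164), Rny3 (553 ± 103), Rny1 (48.1 ± 11.7), Ssb (28.8 ± 11.9), Rn7s2 (13.6 ± 2.78), Rpph1 (3.82 ± 0.952) and Rn7s1 (3.43 ± 1.75). Rny1 and Ssb overlapped in that order, as did Ssb and Rn7s2 and, at the bottom, Rpph1 and Rn7s1. In WT brain the vault RNA fell behind both Y RNAs: Rn7sk (37387 ± 8854 CPM per kb) was followed by Rny3 (6146 ± 3358), Rny1 (1596 ± 818), Vaultrc5 (228 ± 109) and Ssb (24.0 ± 6.22), none of which overlapped its neighbour, and then by Rpph1 (6.43 ± 3.25), Rn7s2 (5.61 ± 2.74) and Rn7s1 (1.02 ± 0.346), of which Rpph1 and Rn7s2 overlapped. Rn7sk alone took 0.232% ± 0.0394 of all counts in WT liver and 1.69% ± 0.384 in WT brain.

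**Figure D1:**
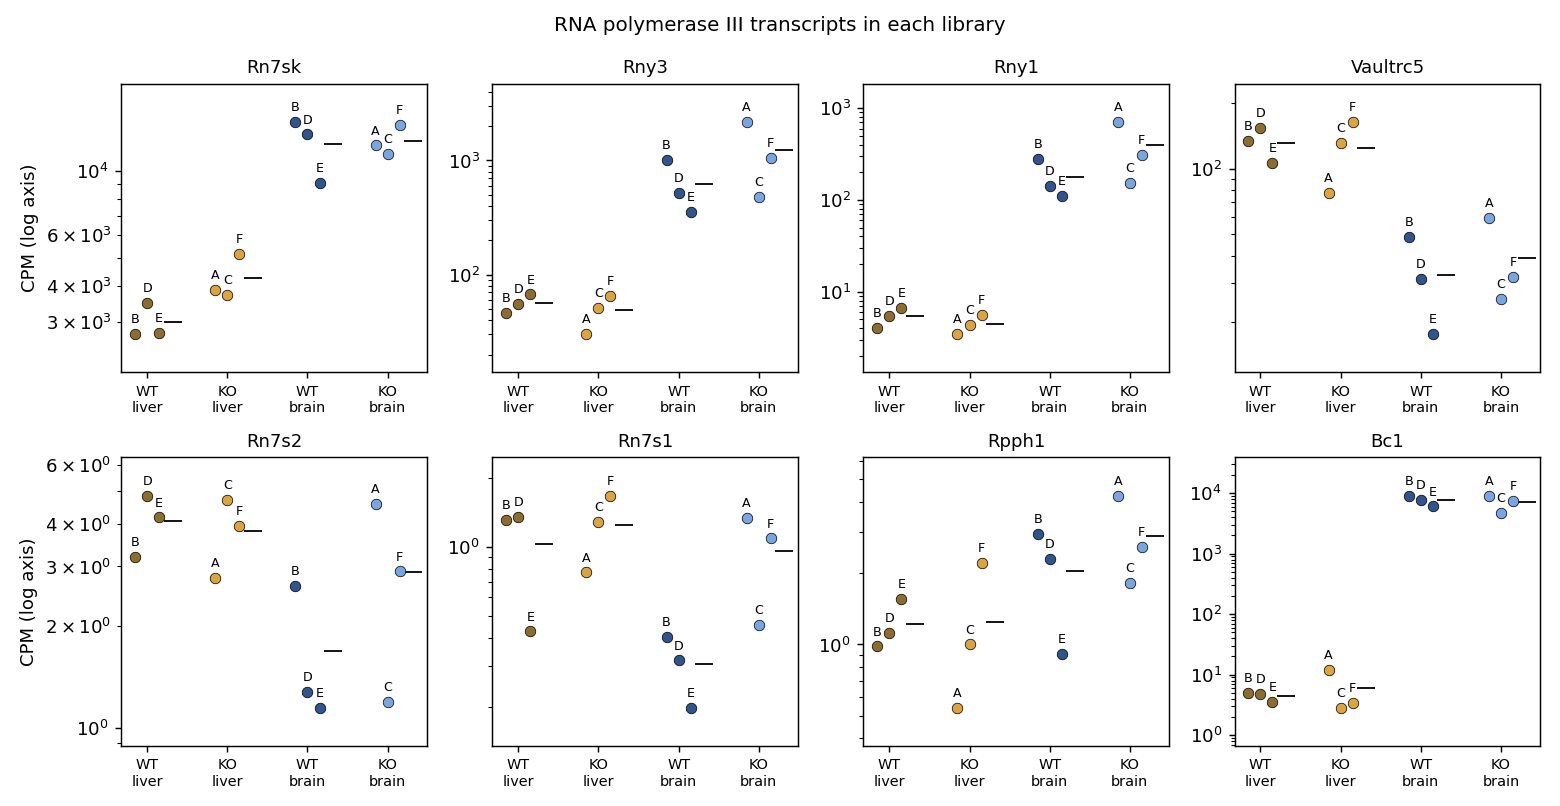
Normalised read counts (CPM, log axis) of 7 Pol III RNAs of the set and of Bc1 in each library, with the mouse letter above each point and a dash at the group mean (n = 3 per group). Rn7sk, Rny1, Rny3 and Bc1 sit higher in every brain library than in any liver library, whereas in the WT groups Vaultrc5 and Rn7s2 sit higher in liver, and mouse A is the highest KO brain library for Rny1, Rny3, Vaultrc5, Rn7s1, Rn7s2, Rpph1 and Bc1.

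The comparison of WT liver with WT brain was not used to choose the rows, and it was tested. Like the other tests, it was set up with earlier results of these data known. Of the 7 members that passed the filter on low counts, 5 were called by edgeR's quasi-likelihood test (Benjamini-Hochberg adjusted p under 0.1), where 78.3% of all 17694 genes tested were. The same 5 were called with mouse as a block, where 76.8% of genes were, and by DESeq2, where 64.6% were. The 5 were Rny1, Rny3 and Rn7sk, higher in brain, and Vaultrc5 and Rn7s2, higher in liver, and each kept its side in all 10 alternatives. The median of all genes in this comparison was -0.16 on the log2 scale, so the values are to be read against a shift of that size. Bulk RNA does not tell a change in the share of a cell type from a change in RNA per cell.

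Rny1, the Y1 RNA, differed most among the members. It had 4.06, 5.42 and 6.67 CPM in the WT livers of mice B, D and E and 283, 143 and 110 CPM in their brains. Every brain lay far above every liver, and the mouse with the lowest liver value had the highest brain value. The log2 difference, liver minus brain, was -5.05 ± 0.397 (SE), or 33.1-fold lower in liver (adjusted p = 1.435e-06, edgeR), and -4.41 without mouse B.

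Rny3, the Y3 RNA, followed the same direction with a smaller difference. WT livers held 46.2, 55.6 and 67.2 CPM and WT brains 1011, 517 and 353 CPM in the same order of mice. The log2 difference was -3.47 ± 0.380, 11.1-fold lower in liver (adjusted p = 1.636e-05, edgeR), and -2.85 without mouse B. The count of Rny3 over that of Rny1 was therefore not the same in both tissues: it ran from 8.73 to 11.7 in the 6 liver libraries and from 3.07 to 3.61 in the 6 brain libraries, with no overlap.

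Rn7sk encodes 7SK, the RNA that holds the elongation factor P-TEFb in an inactive particle. It had 2737, 3501 and 2761 CPM in the WT livers of mice B, D and E and 14722, 13313 and 9090 CPM in the WT brains. The brains were all above the livers, with a log2 difference of -2.04 ± 0.294, 4.10-fold lower in liver (adjusted p = 0.0001005, edgeR).

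Vaultrc5 and Rn7s2 went the other way. Vaultrc5, which sits in the vault particle, had 134, 153 and 106 CPM in WT livers and 48.7, 31.4 and 17.6 CPM in WT brains. Its log2 difference was 2.02 ± 0.328, 4.06-fold higher in liver (adjusted p = 0.0002881, edgeR). Rn7s2 had a log2 difference of 1.29 ± 0.395 (adjusted p = 0.0122, edgeR) on only 29 to 61 counts per WT library, which became 2.15 with an offset for GC content and length and 1.87 without mouse B.

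Ssb and Rpph1 did not pass the threshold between WT tissues. The log2 difference of Ssb was 0.27 ± 0.314 (adjusted p = 0.462, edgeR) and that of Rpph1 was -0.73 ± 0.483 (adjusted p = 0.194, edgeR). With an offset per library for each gene's GC content and length, Ssb passed at 0.62 and Rpph1 passed in the opposite direction, higher in liver, at 0.92. Without mouse E, Rpph1 passed as lower in liver, at -1.31. Rn7s1 did not pass the filter, at 5 to 8 counts in the WT brains.

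Over all 9 lists of Pol III pathway genes 79 of 113 genes tested (69.9%) were called between WT tissues, and 49 of 83 (59.0%) without the other Pol III transcripts, both below the 78.3% of all genes, and the counts that follow are to be read beside that share. Trove2, the gene of Ro60, had 11.9 ± 1.28 CPM in liver and 65.5 ± 6.99 CPM in brain, a log2 difference of -2.45 ± 0.168 (adjusted p = 2.826e-07, edgeR). The vault proteins Mvp, the major vault protein, Tep1 and Parp4 were all higher in liver, at 2.41, 2.66 and 1.54 on the log2 scale. All 4 genes of this list of Y RNA and vault proteins were called, 3 higher in liver and 1 higher in brain.

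Larp1b, a La-related protein, was higher in liver by 3.47 ± 0.184 on the log2 scale (adjusted p = 3.825e-08, edgeR), and Larp6 had at most 1 count in a WT liver against 368 to 557 in the WT brains. Of the 6 La-related genes, 4 were called higher and 1 lower in liver. Of the 8 genes of the 7SK particle and P-TEFb, 2 were called in each direction, and Hexim2, which inhibits P-TEFb when bound to 7SK, had 1.64 ± 0.512 CPM in liver and 5.69 ± 1.34 CPM in brain. Of the 18 Pol III subunit genes, 7 were higher and 4 lower. The subunit gene Polr3g was higher in liver by 2.08 ± 0.259 on the log2 scale. Of the 17 genes of initiation factors, 3 were higher and 5 lower in liver. They include Snapc1, a subunit of the complex that starts transcription of 7SK and U6, at -2.17 ± 0.170, and Maf1, the repressor of Pol III, at -1.12 ± 0.175.

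Among the other Pol III transcripts, Bc1 had 3.55 to 5.04 CPM in WT liver and 6034 to 9121 CPM in WT brain (log2 difference -10.73 ± 0.395, adjusted p = 3.418e-09, edgeR). The 5S rRNA rows went the other way. They number 180 in the table, of which 93 had any count, and their sum was 177 to 237 CPM in WT liver and 25.0 to 66.3 CPM in WT brain. Their models are copies of one gene family, so reads that fit several copies may be missing, and single rows are uncertain.

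Mettl5 was read as the check of the genotype labels. Its 10.1 to 19.0 CPM in WT liver stood against 4.64 to 5.23 CPM in KO liver, and its 3.96 to 7.13 CPM in WT brain against 2.61 to 3.12 CPM in KO brain, with no overlap in either tissue. Groups did not overlap for 13.2% of all genes in liver and 16.4% in brain either. Mettl5 was not called by edgeR in liver or in brain (adjusted p = 0.383 and 0.373, edgeR), and DESeq2 called it in liver only. Mettl5 lies on chromosome 2 from 69871198 to 69885615 on the minus strand, and its last 649 bases face the end of Ssb (chromosome 2, 69861562 to 69871846, plus strand). Of the 2160 exon bases of Ssb, 550 lie opposite exons of Mettl5 or of Gm13625. The counts were made with a strand setting, so reads from the opposite strand do not enter the Ssb row by design.

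Ssb went in opposite directions in the 2 tissues. In liver it had 84.3, 34.1 and 67.9 CPM in WT mice B, D and E and 30.4, 22.3 and 25.6 CPM in KO mice A, C and F. The KO livers all lay below the WT livers, by a small margin for the WT liver of mouse D, and the log2 difference, KO minus WT, was -1.28 ± 0.311 (SE). In brain it had 59.7, 36.3 and 59.5 CPM in WT mice and 116, 78.8 and 74.6 CPM in KO mice. The KO brains all lay above the WT brains, and the log2 difference was 0.80 ± 0.237.

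Taken within each mouse, the ratio of Ssb in liver to Ssb in brain was 1.41, 0.940 and 1.14 in WT mice B, D and E and 0.261, 0.283 and 0.343 in KO mice A, C and F. The ratio was thus lower in every KO mouse than in any WT mouse. The liver effect minus the brain effect was -2.05 ± 0.423 on the log2 scale without a block and -1.97 ± 0.234 with mouse as a block, and it passed the threshold with the block, with DESeq2 and without mouse D, but not in the fit of all 12 libraries by edgeR without the block. Of the 12574 genes tested in both tissues, 103 (0.819%) had all KO livers below and all KO brains above the WT libraries, as Ssb did, and 120 (0.954%) had the reverse. An offset for GC content and length left -1.04 in liver and 0.44 in brain.

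**Figure D2:**
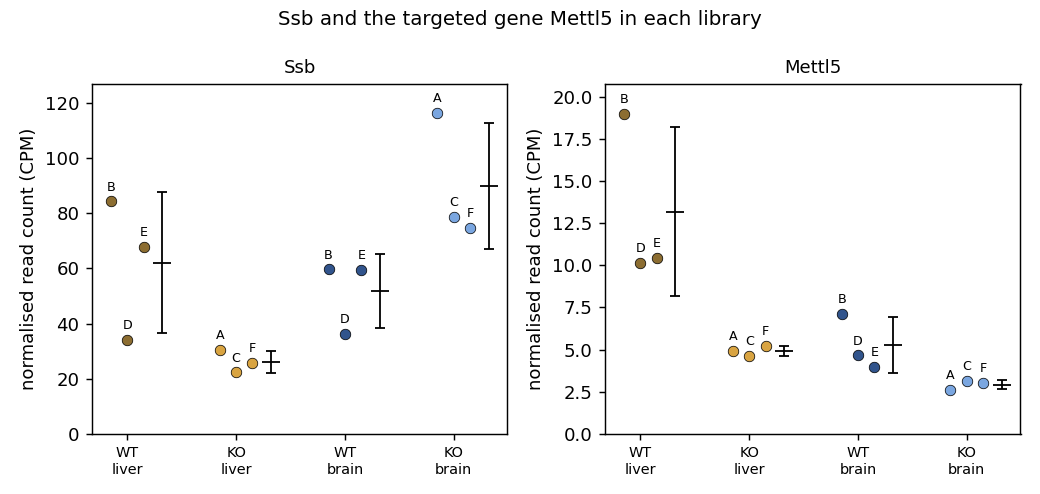
Normalised read counts (CPM) of Ssb and Mettl5 in each library, with mouse letters, and the mean with its SD beside each group (n = 3). Ssb is lower in the KO livers and higher in the KO brains than in the WT libraries of the same tissue, while Mettl5 is lower in the KO libraries of both tissues.

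The share of counts that fell on the 2 mitochondrial rRNAs moved in the same way as Ssb. It was 10.7% to 16.9% in WT liver against 7.36% to 8.66% in KO liver, and 7.63% to 17.7% in WT brain against 21.4% to 31.6% in KO brain. Over the 12 libraries, after subtracting the tissue mean, log2 CPM of Ssb and the log2 share had Pearson's r = 0.900 and Spearman's rho = 0.895. Without the KO brain of mouse A and the WT brain of mouse D, which lay farthest from the median share, r was 0.870, and after subtracting the group means r was 0.786 (rho = 0.811). These are descriptions over 12 libraries that share 6 mice. Of 18944 genes, 52 had a higher r with that share than Ssb. Leaving out the mitochondrially encoded genes from the table left the Ssb differences at -1.28 in liver and 0.80 in brain; whether the samples' RNA quality or makeup has a part in the result was not tested.

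**Figure D3:**
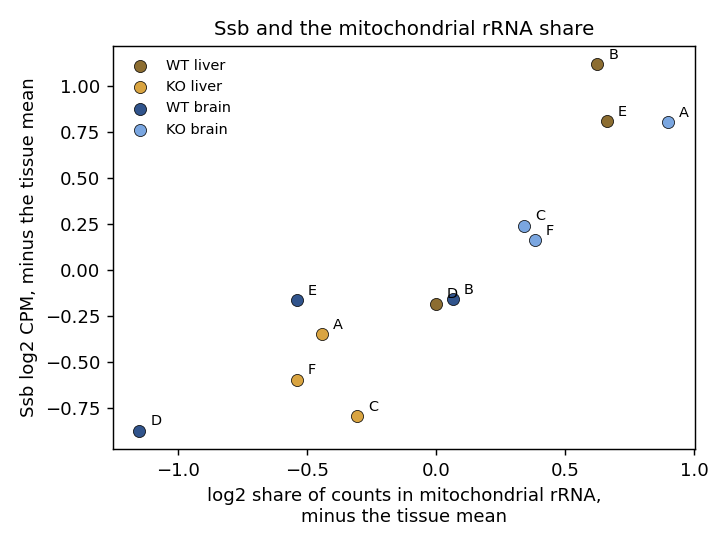
Ssb (log2 CPM) against the log2 share of counts on mitochondrial rRNA, each minus its tissue mean, with 1 point per library and mouse letters. The points rise together over the 12 libraries, with KO brains and the WT livers of mice B and E at the upper right and KO livers at the lower left.

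The genes whose pattern over the 12 libraries was most like that of Ssb, by Pearson's r of tissue-centred log2 CPM among 18944 genes, were Sept7, Dnajc2, Mphosph10, Zfp943 and Zfp729b, in that order, with r from 0.983 down to 0.973 and Spearman's rho from 0.916 to 0.986. Those most like Rn7sk reached lower values: Rplp1 (0.901), Wdsub1 (0.890), Gm11613 (0.886), Gm22442 (0.883) and Tprkb (0.880), with rho from 0.699 to 0.846. Mettl5, which shares the locus with Ssb, had r = 0.416 with it, at 0.908 over the 6 livers and -0.656 over the 6 brains.

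Rn7sk was the other member whose genotypes did not overlap in liver. Its WT livers held 2737 to 3501 CPM and its KO livers 3884, 3739 and 5157 CPM in mice A, C and F, a log2 difference of 0.48 ± 0.184. In brain the WT libraries held 9090 to 14722 CPM and the KO libraries 11430 to 14317 CPM. These overlapped almost fully, with a log2 difference of 0.04 ± 0.223 that was below 0 without mouse E or F and with the GC and length offset. The share of counts on all other genes with under 200 exon bases was also higher in every KO liver (8.97% to 9.61%) than in any WT liver (5.80% to 8.08%) and overlapped in brain. Over the livers Rn7sk had Pearson's r = 0.865 with this share and -0.931 with the mitochondrial rRNA share. Over the brains the values were 0.173 and 0.167. The part of either share in the Rn7sk difference was not tested.

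The Y RNAs did not separate the genotypes in either tissue. Rny1 had 3.47, 4.36 and 5.56 CPM in the KO livers of mice A, C and F, inside or just below the WT range, at a log2 difference of -0.30 ± 0.291. In KO brains it had 711, 154 and 312 CPM against 110 to 283 CPM in WT brains. The groups overlapped, and mouse A stood well above the rest. The log2 difference in brain was 1.14 ± 0.551 with all mice and 0.38 without mouse A, 0.36 with the GC and length offset and 1.64 without mouse B. Rny3 had 30.3, 50.8 and 64.9 CPM in KO livers and 2181, 481 and 1050 CPM in KO brains, and its log2 differences were -0.24 ± 0.273 in liver and 0.99 ± 0.557 in brain, the latter 0.29 without mouse A, 0.25 with the offset and 1.52 without mouse B. Over the 12 libraries Rny1 and Rny3 varied together (r = 0.983, rho = 0.965, tissue means subtracted).

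Vaultrc5 had 77.7, 131 and 163 CPM in KO livers and 59.3, 25.4 and 32.1 CPM in KO brains, which overlapped the WT values in both tissues. Its log2 differences were -0.11 ± 0.264 in liver and 0.26 ± 0.407 in brain, and both changed sign without mouse A. Rn7s1 had 6 to 25 counts in the livers, Rn7s2 21 to 72 and Rpph1 7 to 67 counts over all libraries. Rn7s2 and Rpph1 differed by -0.12 ± 0.305 and 0.02 ± 0.538 in liver and by 0.79 ± 0.504 and 0.50 ± 0.458 in brain, with overlapping genotypes. The brain values were 0.30 and 0.12 without mouse A, and 1.26 and 0.85 without mouse B.

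**Figure D4:**
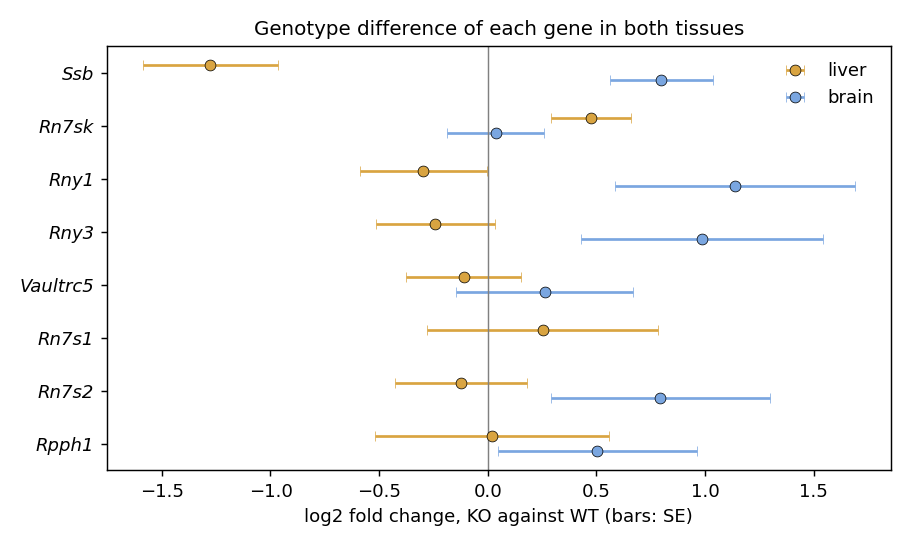
Log2 fold change, KO against WT, with its SE for each member that passed the filter on low counts, in liver (8 members) and brain (7 members, without Rn7s1). Ssb is the member on opposite sides of 0 by more than 3 SE in both tissues, and the Y RNAs have the widest bars in brain.

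None of the 8 members tested in liver was called by edgeR at an adjusted p under 0.1, where 0 of 14075 genes (0%) were, and 2, Ssb and Rn7sk, had an unadjusted p under 0.05, as did 1032 genes (7.33%). DESeq2 called 171 genes (1.13%) in liver, Ssb among them. The groups did not overlap for 2 of the 8 and for 13.2% of all genes. In brain edgeR called none of the 7 members tested and 11 of 17188 genes (0.064%), while 1 member, Ssb, and 1885 genes (11%) had an unadjusted p under 0.05, and the groups did not overlap for 1 member and for 16.4% of genes. DESeq2 called 267 genes (1.52%) in brain, again with Ssb as the 1 member. The median log2 difference was -0.12 over the members and -0.0024 over all genes in liver, and 0.79 and -0.0016 in brain. For the liver effect minus the brain effect edgeR called 0 of 18944 genes (0%), with 2004 (10.6%) at an unadjusted p under 0.05, whereas 68 (0.359%) were called with mouse as a block and 367 (2.01%) by DESeq2, and Ssb was the 1 member among both. As the genotype differences were known when the members were picked, nothing is read from these counts.

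Mouse A's KO brain library was the highest KO brain for Ssb and for 6 of the Pol III RNAs of the set, that is all but Rn7sk and Rmrp. It also held the largest share of mitochondrial rRNA, 31.6% of its counts. The summed 5S rows show the same library apart: 227 CPM in mouse A against 42.1 and 82.7 CPM in the other KO brains and 25.0 to 66.3 CPM in WT brains. In liver the 5S sum was 108, 163 and 182 CPM in KO mice A, C and F and 177 to 237 CPM in WT mice.

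The genes whose products make, bind or trim Pol III RNAs gave no call between genotypes by edgeR: of 81 tested in liver and 83 in brain, 0 passed, where 0% and 0.064% of all genes did. At an unadjusted p under 0.05 there were 7 in liver (8.64%, against 7.33% of all genes) and 5 in brain (6.02%, against 11%). DESeq2, which called 1.13% and 1.52% of all genes, called 0 of them in either tissue. For the liver effect minus the brain effect 0 of 83 passed by edgeR, with or without mouse as a block, 15 were under an unadjusted p of 0.05 (18.1%, against 10.6% over all genes), and DESeq2, which called 2.01% of all genes, called 1, a gene of the signal recognition particle list. The list of other Pol III transcripts, mostly near-identical 5S copies, is described last. In the values that follow no gene passed the threshold in edgeR.

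Larp7, the protein that binds the tail of 7SK, had 16.6 ± 2.10 CPM in WT liver and 12.9 ± 1.40 in KO liver, a log2 difference of -0.40 ± 0.163 (adjusted p = 0.659, edgeR), and 16.6 and 16.8 CPM in brain. Larp4b, another La-related gene, went the other way in liver, at 0.34 ± 0.133 (adjusted p = 0.629, edgeR). Of the 5 La-related genes tested in liver, 3 were above 0 and 2 below. Hexim1, which inhibits P-TEFb on 7SK, had 67.1 ± 7.15 CPM in WT brain and 52.1 ± 1.30 in KO brain (-0.36 ± 0.129, adjusted p = 0.394, edgeR). The signal recognition particle genes Srp19 and Srp54c differed in liver by -0.53 ± 0.142 and -0.83 ± 0.239 (adjusted p = 0.428 and 0.463, edgeR), and 6 of the 7 genes of that list tested had a value below 0 in liver and 6 of 7 a value above 0 in brain.

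Among the initiation factors, Gtf3c1, the largest subunit of TFIIIC, had 118 ± 12.3 CPM in WT liver and 156 ± 8.35 in KO liver (0.38 ± 0.131, adjusted p = 0.528, edgeR). The list medians were -0.01 in liver and -0.05 in brain for the 18 Pol III subunits, and 0.03 and -0.06 for the 17 initiation factor genes, both near the median of all genes. The 4 genes of the Y RNA and vault proteins had a median of 0.10 in liver, with 3 above 0, and of -0.44 in brain, with all 4 below 0. None of the 4 was called in either tissue by edgeR or DESeq2, with 0 in liver and 1 in brain at an unadjusted p under 0.05. Elac2, the nuclease that trims tRNA 3′ ends, differed in brain by -0.38 ± 0.160 (adjusted p = 0.437, edgeR).

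The other Pol III transcripts stood apart from the rest in their medians, at -0.51 over 34 rows in liver and 1.62 over 19 rows in brain, and nearly all of these rows are 5S copies. Only 19 of 186 rows passed the filter in brain, and the filter keeps a row that is high in the KO brains alone, so these medians do not describe the whole list. An unadjusted p under 0.05 was found for 4 rows in liver and 13 in brain, against 7.33% and 11% of all genes. DESeq2 called 0 and 2 (1.13% and 1.52% of all genes). For the liver effect minus the brain effect 23 of 35 rows were under that p (10.6% of all genes), and DESeq2 called 5 (2.01%). Nothing is read from these counts. The sums over all 5S rows, which use no filter, overlapped between genotypes in both tissues. Bc1 had 4662 to 9032 CPM in KO brain and 6034 to 9121 CPM in WT brain, a log2 difference of -0.11 ± 0.264 that became -0.83 with the GC and length offset.

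**Figure D5:**
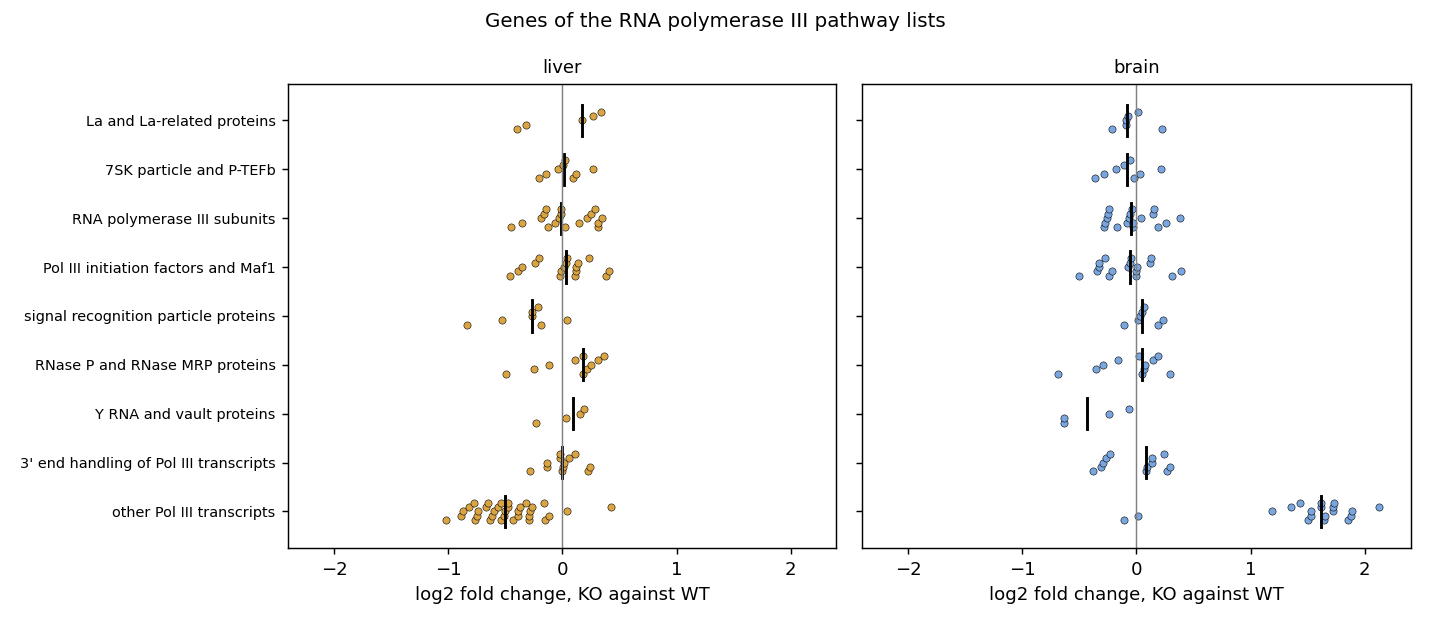
Log2 fold change, KO against WT, of each gene tested in 9 lists of the Pol III pathway, in liver and brain, with a black bar at the list median. The medians of the other 8 lists lie between -0.44 and 0.18 in both tissues, while the rows that passed the filter among the other Pol III transcripts lie mostly below 0 in liver and above 0 in brain.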

How the data were processed

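The authors prepared stranded total RNA libraries (SMARTer kit), sequenced them as single-end reads, trimmed them with Trimmomatic, aligned them to mm10 with STAR 2.7.3a and assigned them to exons with featureCounts, reverse-stranded. What they deposited are raw counts, 1 row per gene. A total RNA kit with this read length may recover RNAs of about 100 bases unevenly. Symbols were matched for 55141 of 55487 genes and transcripts were taken from GENCODE M21 (GRCm38).

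Counts were fitted with edgeR 4.0.16 in R 4.3.3 (TMM, filterByExpr by group, robust quasi-likelihood F test, Benjamini-Hochberg over all genes tested, call at an adjusted p under 0.1). Liver, brain and the WT tissues used their 6 libraries each, and the difference of the genotype effects all 12. Alternatives were DESeq2 1.42.0, RLE scaling, no filter, no mitochondrially encoded genes, an offset for GC and length (splines with 5 degrees of freedom), 1 fit of all 12 libraries, a term for Y-linked counts, mouse as a block and leaving out each mouse. The scripts were tested on simulated data.

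The labels give the liver and brain of a mouse the same letter, which pairs them by animal. The deviations of both libraries from their group means had Pearson's r from -0.0387 to 0.141 over 12574 genes. SDs and SEs include the spread between mice, and the limit for a count of 0 covers counting error only.

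The members, the pathway lists and the tests were chosen with earlier results of these data known. Named genes are the members, Mettl5, the 5 genes most like Ssb and the 5 most like Rn7sk (tissue-centred log2 CPM, prior count 2), and from each list the genes called between genotypes and otherwise the 2 with the smallest p in each tissue, of which the text gives examples. For the WT tissues, where most genes were called, counts and examples with small p are given.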

Additional observations from a re-analysis of the deposited data

Results flagged for a closer look

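Ssb was singled out because its genotype effect differed between the tissues. The liver effect minus the brain effect was -1.97 ± 0.234 (SE) on the log2 scale with mouse as a block, past the threshold there, in DESeq2 and without mouse D, but not with edgeR on all 12 libraries without the block. This is a pattern already known when Ssb was chosen, and it is given as a description.

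Among 54 genes examined, the members and the named genes of the lists that were tested, 6 besides Ssb had a pattern in which every KO liver moved one way against the WT livers and every KO brain the other way, while the test of the difference between tissues did not pass the threshold. Of the 12574 genes tested in both tissues, 0.819% were lower in every KO liver and higher in every KO brain, and 0.954% the reverse. The named genes of the lists were picked for a small p in liver or brain, which favours this pattern. Their number therefore cannot be set against these shares as a sign of enrichment. The liver effect minus the brain effect was 0.64 for Gtf3c5, -0.82 for Snapc5, 0.46 for Larp4b and 1.04 for Rpp25l. For the 5S rows n-R5s88 and n-R5s90 it was -2.83 and -2.55, on low counts of near-identical copies. Both are among the 19 of 186 rows that passed the filter in brain, which keeps a row that is high in the KO brains alone. The KO brain of mouse A stood apart in the summed 5S rows, at 227 CPM against 42.1 and 82.7 CPM in the others, so both values are a description only. The adjusted p-values of the other 4 genes ran from 0.348 to 0.410 (edgeR). No explanation was tested for any of them.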

How the results depend on the processing

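The numbers of genes called between genotypes depended on the processing, and the cause was not tested. In liver 0 genes were called, against 171 with DESeq2, 443 without the filter, 3 with all 12 libraries in 1 fit, 82 with a term for Y-linked counts and 0 to 87 when a mouse was left out, with 87 without mouse D. In brain 11 became 267 with DESeq2, 1000 without the filter, 87 with the GC and length offset and 2 to 23 when a mouse was left out. For the difference between tissues 0 became 1 with RLE, 367 with DESeq2, 183 without the filter, 1 without mitochondrially encoded genes, 47 with the offset and 0 to 86 when a mouse was left out. With mouse as a block, as the pairing by animal allows, it was 68, and Ssb was called; between WT tissues the block gave 13588 calls against 13861 and changed no member's call. The WT tissue calls were 45.2% higher in liver, against 56.8% with the offset, which moved the median of all genes from -0.16 to 0.32 on the log2 scale.

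Of 291 alternative values for genotype effects of the members, 261 kept direction and side of the threshold, 9 passed it anew and 21 reversed; between WT tissues 67 of 70 kept both, 2 passed it anew in the same direction and 1, Rpph1, reversed and passed. Ssb kept its direction throughout: the lowest and highest values were -1.565 and -1.003 in liver, and 0.443 and 0.916 in brain. The reversed effects had all been below the threshold in the fit reported, and of the reversed values only that of Rpph1 between WT tissues passed it. Leaving out 1 mouse at a time gave, in liver, -0.12 to 0.50 for Rn7s1, -0.31 to 0.059 for Rn7s2, -0.67 to 0.37 for Rpph1, -0.50 to 0.0092 for Rny3, -0.36 to 0.14 for Vaultrc5 and -0.53 to 0.76 for Bc1. In brain it gave -0.14 to 0.19 for Rn7sk, -0.18 to 0.68 for Vaultrc5 and -0.32 to 0.12 for Bc1. In the difference between tissues it gave -1.22 to 0.29 for Rpph1, -0.73 to 0.35 for Vaultrc5 and -0.18 to 0.90 for Bc1. The offset reversed Rn7sk (-0.039) and Vaultrc5 (-0.067) in brain and Rpph1 in liver (-0.21) and between WT tissues (0.92), and the Y-linked term reversed Rpph1 in liver (-0.091). Rn7s1, Rn7s2 and Rpph1 rest on 72 counts or fewer per library.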
